A study of Mus musculus with 18 samples.

Results

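Selenoprotein mRNA was compared between livers that had lost Trsp in hepatocytes and wild type livers of the same colony. Trsp encodes the transfer RNA that brings selenocysteine to the ribosome. The libraries were chosen by their labels alone: 2 Trsp knockout and 3 Trsp wild type RNA-seq libraries, out of 9 RNA-seq libraries and 18 libraries in the series. All 23 selenoprotein genes of the RNA table were described. Knockout mice had the genotype Alb-Cre; Trspfl/fl, in which Cre recombinase is driven by the albumin promoter of hepatocytes and removes the floxed gene there. Controls were male littermates labelled wild type, with no further allele given, and all mice were males aged 5 to 8 weeks. Whole livers were used, so bile duct, vessel and immune cells also contributed RNA to every library. Whether each of these cell types kept Trsp was not analysed here. The labels state 3 mice for each genetic background, and 2 knockout libraries were analysed here. By the labels' library codes all 5 libraries belong to a single set.

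Selenocysteine is inserted at UGA codons, which otherwise end translation. The insertion needs the selenocysteine transfer RNA and a protein, Secisbp2, that binds a hairpin called the SECIS element in the mRNA. When a UGA is read as a stop and an exon junction lies further downstream, the mRNA can be removed by nonsense-mediated decay, a surveillance pathway for early stop codons. In liver, selenoproteins reduce peroxides (the Gpx enzymes), keep thioredoxin reduced (the Txnrd enzymes), activate thyroid hormone (Dio1) and carry selenium to other organs (Selenop).

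Levels are RPKM, reads scaled by transcript length and library size, so that genes of different length can be compared. The whole reads behind each value could be recovered: the wild type libraries held 183430, 193585 and 221637 selenoprotein reads and the knockout libraries 112439 and 68125. The library totals used for scaling were 19779672, 22539919 and 22845094 reads in wild type and 31491042 and 19956492 reads in the knockouts, so the shallowest of the 5 was a wild type library. The table held no other gene. Loss of Trsp itself, the hepatocyte identity of the tissue and its content of other cells were therefore not analysed here, and in whole liver fewer cells of a type cannot be told apart from less RNA per cell.

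Selenoprotein mRNA was much less abundant in the knockouts, and Gpx1 and Selenop together made up a smaller part of what was left, mostly through Gpx1. Summed over the 23 genes, the level was 5937, 5577 and 6281 RPKM in wild type and 2250 and 2185 RPKM in the knockouts. Every knockout library lay below every wild type library, and the knockout mean was 37.4% of the wild type mean. The exact two-sided permutation test gave p = 0.10, the smallest value that 2 against 3 libraries allow. The sum without Gpx1 and Selenop was 69.6% of wild type, again with no overlap and an exact permutation p = 0.10 (1226 ± 42.5 RPKM, SD, n = 2, against 1760 ± 66.9 RPKM, SD, n = 3).

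**Figure D1:**
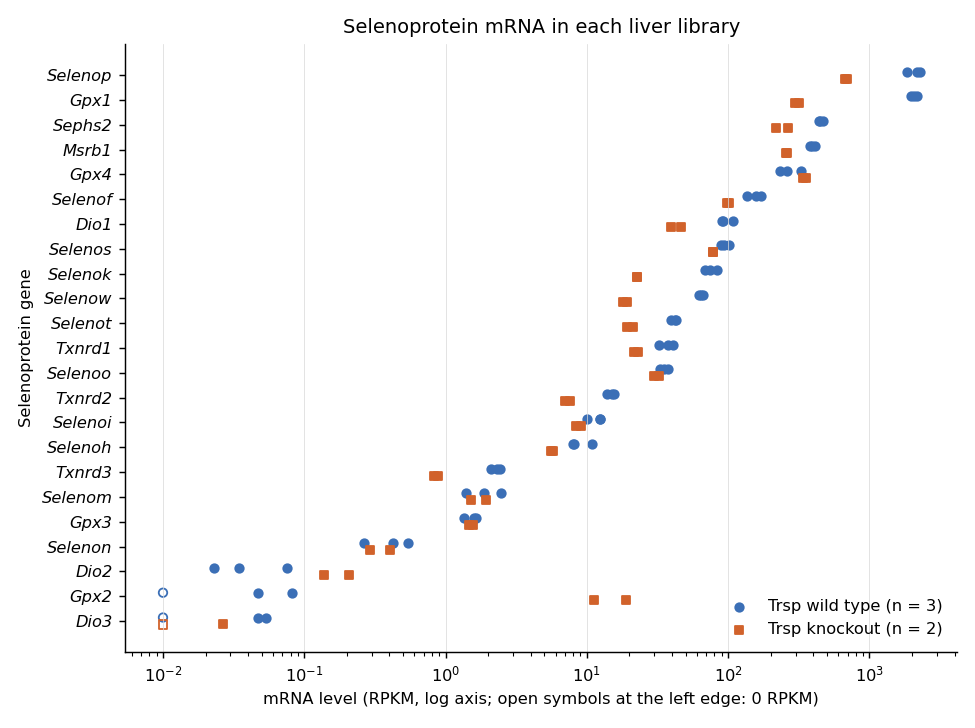
mRNA level in RPKM (log axis) of each of the 23 selenoprotein genes in each Trsp library, ordered by the wild type mean; circles are the 3 wild type livers, squares the 2 knockout livers, and open symbols mark 0 RPKM. The knockout symbols lie left of all wild type symbols for 16 genes and right of them for 3, Gpx4, Gpx2 and Dio2.

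In wild type livers Gpx1 and Selenop shared the top of the order, each with about 35% of the summed RPKM (35.1% ± 0.324 and 35.2% ± 1.71, SD, n = 3). Together they made up 71.4%, 68.7% and 70.8% of the sum, and Sephs2, Msrb1, Gpx4 and Selenof held ranks 3 to 6 in every wild type library. In the knockouts Gpx1 and Selenop together made up 44.2% and 45.3%. Selenop remained first with 30.9% ± 0.0858 (SD, n = 2), while Gpx1 dropped to rank 3 in both knockout libraries with 13.9% ± 0.853. Gpx4 moved from rank 5 in all wild type libraries to rank 2 in both knockouts, with its share going from 4.62% ± 0.653 to 15.6% ± 0.177. Selenof kept rank 6 in all 5 libraries. Further down, Selenoo, a mitochondrial enzyme that attaches AMP to proteins, stood at rank 12 or 13 in wild type and 9 in the knockouts, and Txnrd3 moved from rank 17 or 18 to 20.

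**Figure D2:**
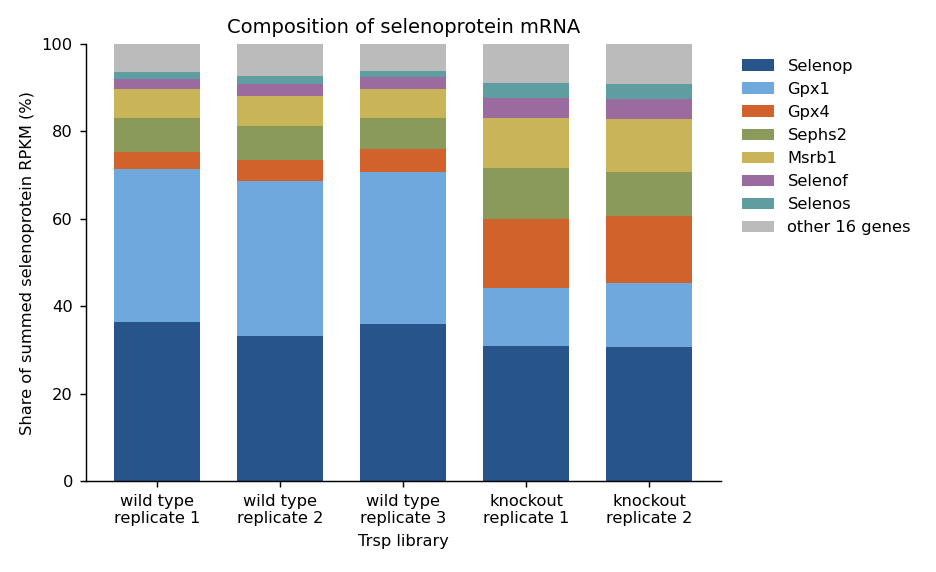
Share of the summed selenoprotein RPKM (%) in each of the 5 Trsp libraries, as stacked bars from 0 to 100%. Selenop and Gpx1, at the bottom, make up 68.7% to 71.4% in wild type and 44.2% and 45.3% in the knockouts, and Gpx4 makes up 3.93% to 5.23% in wild type and 15.5% and 15.7% in the knockouts.

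Each gene's level was tested with limma on log2(RPKM + 0.5), a scale that understates the change of low genes, with Benjamini-Hochberg adjustment and a threshold of 0.05. Of the 20 mRNAs with a mean of at least 1 RPKM, 14 fell (70.0% of those tested), 1 rose (5.00%), which is 75.0% in either direction, and 5 were not called. Over all 23 genes the groups did not overlap in 19: the knockouts were lower in 16 (69.6%) and higher in 3 (13.0%). These shares are the background for the counts by gene group below. The split rests on the scaling of the libraries. With libraries scaled to the same median ratio of the selenoproteins all changes shifted up by 0.56, and 4 were higher and 7 lower. With libraries scaled to the same summed RPKM, so that a change is one in the share of the sum, they shifted by 1.42, and 14 were higher and 2 lower. Both scalings centre the libraries on the selenoprotein mRNAs themselves, so a fall common to most of them is taken out by construction. Here and in the gene groups below they show changes relative to the other selenoprotein mRNAs only. Without other genes a common fall cannot be told apart from a difference in scaling. Gpx1 and Selenow were lower, and Gpx2 higher, under all 3 scalings. All log2 changes below are knockout minus wild type on this scale, and the interval after each is its 95% confidence interval.

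The glutathione peroxidases did not move as a group. Of 4 tested, Gpx1 fell, Gpx2 rose and the other two were not called, and their median was 0.17 against -0.66 over all mRNAs tested (0.73 for the group with libraries scaled to the median ratio, where 3 were higher and 1 lower). Gpx1, the cytosolic enzyme that reduces hydrogen peroxide, was at 2079, 1975 and 2184 RPKM in wild type and 298 and 316 RPKM in the knockouts. The groups were far apart, with the knockout mean at 14.8% of wild type (log2 change -2.76, interval -3.04 to -2.47, limma adjusted p = 1.23e-07). It was the deepest fall among the mRNAs tested, and in RPKM also the largest loss of any gene: the Gpx1 mean fell by 1772 RPKM and the Selenop mean, next in size, fell by 1408 RPKM. Gpx4, the enzyme that reduces lipid peroxides in membranes, was at 233, 262 and 329 RPKM in wild type and 354 and 338 RPKM in the knockouts. Both knockout livers lay just above the highest wild type liver, and the wild type livers spread widely, with a coefficient of variation of 17.7% where counting alone gives 1.34%. The change did not pass (log2 change 0.35, interval 0 to 0.69, limma adjusted p = 0.0631). It passed with the Trsp groups alone in the fit (adjusted p = 0.0127) and without Trsp wild type replicate 3 (0.48, adjusted p = 0.00783). Against the wild type livers of the Secisbp2 colony it was lower instead (-0.64, adjusted p = 0.00813). The fit of the Trsp groups alone took the spread almost wholly from all genes together, with a limma adjusted p = 2.13e-34 for Gpx2 from 5 libraries. The wide spread of Gpx4 itself counted for little in that fit.

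The ratio of Gpx1 to Gpx4 within a library does not depend on how libraries are scaled. It was 8.91, 7.53 and 6.65 in wild type and 0.844 and 0.935 in the knockouts, so by RPKM the order of these peroxidase mRNAs was inverted in both knockout livers. The ratio does depend on the transcript lengths used. By reads Gpx1 was below Gpx4 in Trsp knockout replicate 1 (10016 against 10625) but above it in replicate 2 (6724 against 6434).

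Gpx3, the peroxidase secreted into plasma, mostly by the kidney, was at 1.63, 1.35 and 1.59 RPKM in wild type and 1.57 and 1.45 RPKM in the knockouts. The groups overlapped and the means differed by less than the spread between livers (interval -0.37 to 0.36, limma adjusted p = 0.976). The Gpx3 values rest on 44 to 75 reads a library. Gpx2, the peroxidase of the gut lining, went the other way from Gpx1. It had 1, 0 and 2 reads in the wild type libraries and 379 and 404 reads in the knockouts, at 0.0472, 0 and 0.0817 RPKM against 11.2 and 18.9 RPKM. Its rank went from 21 or 22 to 14 in both knockouts. The log2 change of Gpx2, whose size depends on the pseudocount of 0.5, was 4.80 (interval 4.03 to 5.57, limma adjusted p = 1.91e-06). From the 783 and 3 reads of each group relative to the library totals the knockout rate was 331 times that of wild type. The exact 95% interval of this ratio, 113 to 1607, covers counting error only and leaves out the spread between livers. This ratio rests on 3 wild type reads: with single libraries left out it ran from 216 (without Trsp wild type replicate 2) to 644 (without Trsp wild type replicate 3, interval 115 to 25472). Against the wild type livers of the Secisbp2 colony, where Gpx2 was at 3.44 and 1.23 RPKM on 24 and 34 reads, the log2 change was 2.53 (limma adjusted p = 0.000274). By symbols that add -ps to the gene's own, the RefSeq annotation lists 1 pseudogene of Gpx2, which is transcribed, and 8 of Selenok, of which 1 is transcribed. It also lists 2 of Gpx4 and 1 of Selenot. Pseudogenes under other names were not searched. The sources used here do not say how reads shared with such copies were counted. The levels of at least these 4 genes are uncertain to that extent.

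Gpx2 and Txnrd1 are both known targets of NRF2, the transcription factor of the oxidative stress response, which binds the antioxidant response element, here the letters TGACNNNGC on either strand. Since their RPKM moved in opposite directions, the 250 bases before their starts are shown, with those of Selenok, the other gene of the table that holds the motif. Sequences are from RefSeq on GRCm38.p6, written 5′ to 3′ on the gene's strand, and capitals mark the motif. They are chr12:76795555-76795804 (minus strand) for Gpx2, chr10:82858956-82859205 (plus strand) for 1 of 3 annotated starts of Txnrd1, and chr14:29968130-29968379 (plus strand) for Selenok.
Gpx2: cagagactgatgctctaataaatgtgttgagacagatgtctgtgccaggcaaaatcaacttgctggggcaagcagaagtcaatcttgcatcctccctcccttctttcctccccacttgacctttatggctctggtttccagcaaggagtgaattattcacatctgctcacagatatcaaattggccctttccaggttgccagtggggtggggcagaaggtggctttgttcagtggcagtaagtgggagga
Txnrd1: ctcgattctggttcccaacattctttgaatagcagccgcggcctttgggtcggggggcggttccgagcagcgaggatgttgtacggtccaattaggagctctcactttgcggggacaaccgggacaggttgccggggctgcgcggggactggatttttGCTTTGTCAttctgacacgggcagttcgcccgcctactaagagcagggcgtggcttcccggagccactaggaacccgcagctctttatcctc
Selenok: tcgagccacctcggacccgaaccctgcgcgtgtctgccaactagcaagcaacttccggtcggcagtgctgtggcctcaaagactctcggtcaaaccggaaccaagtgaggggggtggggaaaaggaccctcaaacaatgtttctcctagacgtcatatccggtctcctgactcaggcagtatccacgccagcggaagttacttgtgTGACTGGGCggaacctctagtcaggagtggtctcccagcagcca
The Gpx2 stretch holds no match to these letters. The Txnrd1 stretch holds 1 match, read on the opposite strand and beginning 92 bases before the start, and the Selenok stretch holds 1 on the same strand, 44 bases before the start. Among 32851 annotated starts of the mouse genome 10.2% hold the motif in this window, and of the 30 starts of the 23 genes 2 do. Of the 3 Txnrd1 starts only the start shown holds the motif. A match or its absence describes the letters in this window and is not evidence about binding. The cause of the changes of these genes was not tested.

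Selenop, the protein through which the liver supplies other organs with selenium, was at 2158, 1854 and 2265 RPKM in wild type and 696 and 673 RPKM in the knockouts. The knockout mean was 32.7% of wild type, with no overlap (log2 change -1.61, interval -1.95 to -1.27, limma adjusted p = 1.09e-05). Its share of the sum was lower in both knockouts than in any wild type liver but did not pass the test (log2 change of the share -0.19, interval -0.45 to 0.07, adjusted p = 0.143). The ratio of Selenop to Gpx1 was 1.04, 0.939 and 1.04 in wild type and 2.33 and 2.13 in the knockouts. Sephs2, which makes the selenophosphate from which selenocysteine is built and is itself a selenoprotein, was at 467, 439 and 443 RPKM in wild type and 265 and 219 RPKM in the knockouts (log2 change -0.90, interval -1.36 to -0.44, limma adjusted p = 0.0028). Its knockout livers differed from each other more than those of Selenop, with an SD of 32.1 RPKM around 242 RPKM. Against the wild type livers of the Secisbp2 colony the Sephs2 change was 0.34 and did not pass (adjusted p = 0.226).

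The 3 thioredoxin reductases all fell, with a median log2 change of -0.98, but after scaling to the median ratio 2 of 3 were lower (median -0.41), and as shares of the sum all 3 changes were above 0. Txnrd1, the cytosolic enzyme, was at 40.6, 37.3 and 32.6 RPKM in wild type and 21.6 and 23.1 RPKM in the knockouts (60.8% of wild type, log2 change -0.70, interval -0.98 to -0.42, limma adjusted p = 0.000665). Txnrd2, the mitochondrial enzyme, was at 15.2, 14.0 and 15.6 RPKM against 7.01 and 7.64 RPKM, which is 49.1% of wild type (-0.98, interval -1.20 to -0.75, adjusted p = 1.64e-05). Txnrd3, best known from testis, was low throughout, at 2.44, 2.08 and 2.30 RPKM against 0.885 and 0.830 RPKM (-1.03, interval -1.36 to -0.70, adjusted p = 0.000181). For each of the 3, both knockout livers lay below all wild type livers. In these enzymes selenocysteine is the residue before the last, so that an mRNA read as stopping at the UGA would lack the very end of the protein.

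Of the 6 tested selenoproteins of the endoplasmic reticulum 4 fell and 2 were not called, with a median of -0.50, which became 0.06 with 2 lower after scaling to the median ratio. Selenok, a membrane protein needed for protein palmitoylation and calcium flux, was at 68.5, 82.8 and 74.2 RPKM in wild type and at 22.8 and 22.5 RPKM in the knockouts (30.1% of wild type, log2 change -1.70, interval -2.03 to -1.38, limma adjusted p = 5.21e-06). Selenos, which works with Selenok in the removal of misfolded proteins, was at 88.7, 101 and 92.8 RPKM against 78.5 and 77.9 RPKM. The groups did not overlap but the Selenos change did not pass (-0.26, interval -0.62 to 0.09, adjusted p = 0.14). The ratio of Selenok to Selenos within a library was 0.772, 0.821 and 0.799 in wild type and 0.290 and 0.289 in the knockouts, with no overlap.

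Selenot, a thioredoxin-like protein of the same compartment, was at 39.3, 42.0 and 42.5 RPKM in wild type and 21.2 and 19.1 RPKM in the knockouts (48.8% of wild type, log2 change -1.02, interval -1.26 to -0.78, limma adjusted p = 1.89e-05). Selenof, a partner of the glycoprotein folding sensor, was at 136, 158 and 170 RPKM against 102 and 98.7 RPKM (-0.62, interval -0.89 to -0.35, adjusted p = 0.00113). The Selenof call was lost with both wild type groups pooled as control (-0.28, adjusted p = 0.521), and against the Secisbp2 wild type livers alone its change was 0.23 (adjusted p = 0.179). Selenoi, the enzyme that makes phosphatidylethanolamine from its alcohol precursor, was at 12.4, 12.4 and 9.99 RPKM against 9.04 and 8.44 RPKM. Its fall was the smallest that passed (-0.38, interval -0.68 to -0.08, adjusted p = 0.0244) and lost its call when any of 4 of the 5 Trsp libraries was left out (adjusted p = 0.0644 to 0.138). Selenom, a protein of the thioredoxin fold, at 1.40 to 2.45 RPKM in wild type and 1.5 and 1.92 RPKM in the knockouts on 28 to 43 reads a library, overlapped and did not pass.

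Selenow and Selenoh, small proteins with a thioredoxin-like fold, and Msrb1, which repairs oxidised methionine, form with Gpx1 the group whose mRNAs are known to follow the selenium supply. All 4 fell, but by very different amounts, with a median log2 change of -1.18 (-0.62 after scaling to the median ratio, where 2 were lower, and as shares Msrb1 and Selenoh rose). Selenow was at 66.1, 64.3 and 62.5 RPKM in wild type and at 18 and 19.3 RPKM in the knockouts, 29.0% of wild type (-1.76, interval -2.01 to -1.51, limma adjusted p = 1.11e-06). Selenoh was at 7.98, 8.15 and 10.9 RPKM against 5.6 and 5.75 RPKM, on 80 to 173 reads a library (-0.61, interval -0.93 to -0.29, adjusted p = 0.00301). Msrb1 was at 393, 377 and 414 RPKM against 257 and 263 RPKM, 65.9% of wild type (-0.60, interval -0.82 to -0.38, adjusted p = 0.000372). The ratio of Selenow to Msrb1 was 0.168, 0.171 and 0.151 in wild type and 0.0701 and 0.0735 in the knockouts, so within this group Selenow lost more than Msrb1 in both knockout livers. Selenoo, at 32.8, 35.3 and 37.5 RPKM in wild type and 32.3 and 30 RPKM in the knockouts, was not overlapping but did not pass (-0.17, interval -0.40 to 0.06, adjusted p = 0.14).

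Dio1, the liver deiodinase that makes active thyroid hormone, was at 91.9, 109 and 91.0 RPKM in wild type and 46.2 and 39.7 RPKM in the knockouts, 44.2% of wild type (log2 change -1.17, interval -1.69 to -0.65, limma adjusted p = 0.00124). Against the wild type livers of the Secisbp2 colony the Dio1 change was -0.20 and did not pass (adjusted p = 0.519). Dio2 and Dio3 were under the minimum of 1 RPKM and were not tested. Dio2, which makes active hormone in brain and brown fat, had 4, 3 and 10 reads in wild type (0.0346, 0.0228 and 0.0749 RPKM) and 38 and 16 reads in the knockouts (0.207 and 0.137 RPKM). The groups did not overlap and the knockout rate was 4.02 times that of wild type by reads, at a level that stayed low, at most 0.207 RPKM. The exact 95% interval, from 2.30 to 7.40, covers counting error only. In the wild type livers of the Secisbp2 colony Dio2 was at 0.0262 and 0.133 RPKM on 1 and 20 reads, the latter close to Trsp knockout replicate 2. Dio3, the deiodinase that inactivates the hormone, had 2, 0 and 2 reads in Trsp wild type against 0 and 1 in the Trsp knockouts. Selenon, a protein of the muscle endoplasmic reticulum, had 29, 42 and 21 reads against 44 and 20, with a rate ratio of 0.881 (exact 95% interval 0.630 to 1.23).

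The share of the summed selenoprotein RPKM was tested in the same way and asks which mRNAs held a larger part of what remained. Shares have a fixed sum, so a share can rise while the level of the same mRNA falls. In all, 14 of 20 shares rose (70.0%), 2 fell (10%, making 80.0% in either direction) and 4 did not pass. Over all 23 genes the shares of both groups did not overlap for 16 higher (69.6%) and 4 lower (17.4%). The 2 that fell were Gpx1 (log2 change of the share -1.34, interval -1.58 to -1.10, limma adjusted p = 2.91e-06) and Selenow (-0.34, interval -0.61 to -0.07, adjusted p = 0.0241). Besides Gpx2, the shares of Gpx4 (1.76, interval 1.44 to 2.09, adjusted p = 2.91e-06), Gpx3 (1.41), Selenom (1.31) and Selenoo (1.25) rose most. Selenop, Selenok, Dio1 and Txnrd3 did not pass. Against a sum without Gpx1 and Selenop, 4 shares were higher and 8 lower, so which mRNAs count as enriched depends on those 2 genes. Without single libraries Selenot, Selenow, Sephs2 and Txnrd2 lost their call for the share.

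**Figure D3:**
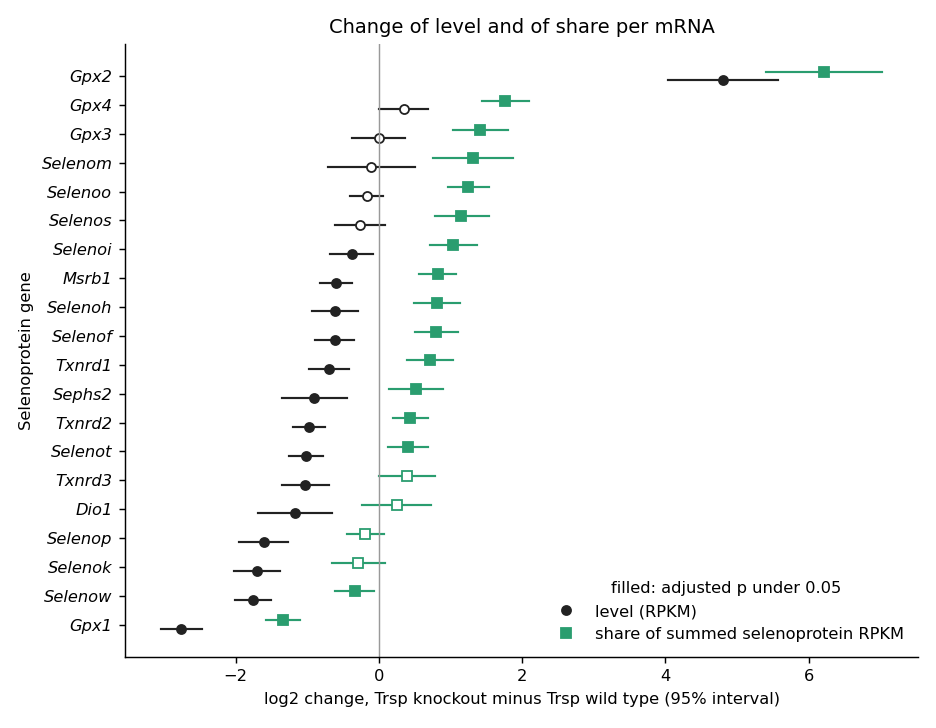
log2 change between Trsp knockout and wild type for the 20 mRNAs tested, with 95% confidence intervals: circles are the level in RPKM, squares the share of the summed selenoprotein RPKM, and filled symbols passed at an adjusted p under 0.05. For the level 14 symbols passed on the left and Gpx2 on the right; for the share Gpx1 and Selenow passed on the left and 14 genes on the right.

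The other knockout of the series removed Secisbp2 from hepatocytes with the same Cre (genotype Alb-Cre; Secisbp2fl/fl) and was compared with its own wild type livers, with 2 libraries in each group. The library codes put those 2 groups into separate sets, so that there genotype and set cannot be told apart. The difference of the knockout changes passed for 14 of 20 mRNAs (70.0%), 7 in each direction (35.0% each), and with libraries scaled to the summed RPKM 3 were higher and 9 lower. The fall of Gpx1 (-2.76 in the Trsp and -2.64 in the Secisbp2 knockout) did not differ beyond its error, with an interval of the difference from -0.53 to 0.30. The same held for Selenow (-1.76 and -1.73, interval -0.40 to 0.35), Msrb1 (-0.60 and -0.48, interval -0.44 to 0.20) and Selenof (-0.62 and -0.73, interval -0.29 to 0.51). Lower in the Trsp knockout were Selenok (-1.70 against -0.24, limma adjusted p of the difference 0.000377), Selenot (-1.02 against 0.31, adjusted p = 0.000181) and all 3 thioredoxin reductases. For Txnrd1 the changes were -0.70 and 0.50 (adjusted p = 0.000475). In contrast Gpx4 (0.35 against -1.44, adjusted p = 0.000207) and Dio1 (-1.17 against -2.54, adjusted p = 0.00656) were higher in the Trsp knockout. Ratios within a library do not depend on scaling. Those given here were chosen after their values were seen and come from the same RPKM. They describe the values and are no separate support for the contrast. Selenok to Selenos was 0.892 and 0.806 in Secisbp2 wild type and 1.35 and 1.44 in the Secisbp2 knockout, where it went up, while it went down in the Trsp knockout. Gpx1 to Gpx4 was 3.48 and 4.05 in Secisbp2 wild type and 1.75 and 1.53 in the Secisbp2 knockout, so it went down in both knockouts. It was below 1 in the Trsp knockout alone, but the wild type groups also differed, with 6.65 to 8.91 in Trsp wild type.

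**Figure D4:**
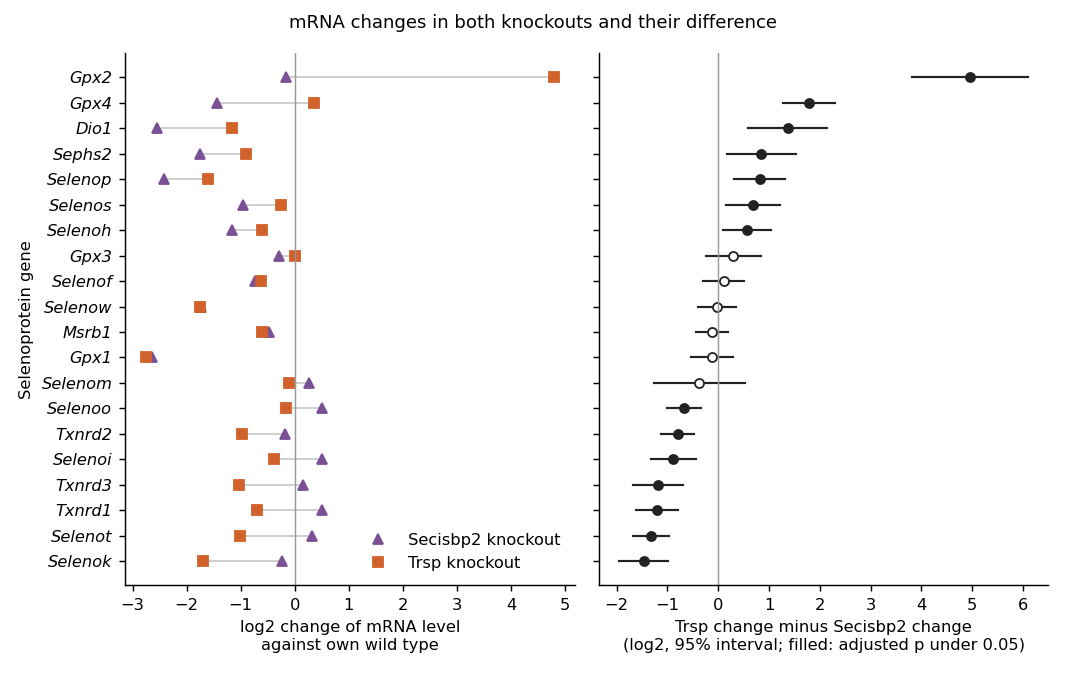
Left, log2 change of the mRNA level in the Trsp knockout (squares) and the Secisbp2 knockout (triangles), each against its own wild type; right, the difference of both changes with its 95% confidence interval, filled where the adjusted p was under 0.05. Gpx1, Selenow, Msrb1 and Selenof lie together, while Selenok, Selenot and the thioredoxin reductases lie further left in the Trsp knockout and Gpx2, Gpx4 and Dio1 further right.

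Ribosome footprints 5′ of the UGA codon, which come from ribosomes that have begun translation, were set against the mRNA in the same groups. The difference between the footprint and the mRNA change passed for 2 of 20 genes (10%), both lower. This fit takes all libraries as independent, although the labels' 3 mice for each background mean that the 3 footprint and 3 RNA libraries of Trsp wild type share livers. The other genes were not thereby shown to move with their mRNA. Besides Gpx2, given below, intervals lay off 0 without passing for Selenok (-1.38, interval -2.52 to -0.24), Selenoo (-0.56, interval -1.1 to -0.03) and Selenop (0.66, interval 0.03 to 1.29). For Gpx1 the interval was wide (-1.02, interval -2.39 to 0.35), with wild type footprints at 1275, 4340 and 1020 RPKM. Txnrd1 footprints were at 60.8, 81.5 and 66.7 RPKM in wild type and 17.1 and 19.7 RPKM in the knockouts, a change 1.18 below that of the mRNA on the log2 scale (difference -1.18, interval -1.66 to -0.71, limma adjusted p = 0.00249). Txnrd2 footprints were at 14.9, 16.4 and 17.4 RPKM against 5.09 and 4.66 RPKM (difference -0.66, interval -1.08 to -0.24, adjusted p = 0.0479). Without Trsp knockout replicate 1 neither call held (adjusted p = 0.0646 for Txnrd1 and 0.162 for Txnrd2), and Txnrd2 also lost its call when any other Trsp library was left out. Gpx2 footprints, listed at 0 in the 3 wild type livers, were at 37.4 and 41.4 RPKM in the knockouts, and their change did not differ from that of the mRNA past the threshold (1.52, interval 0.43 to 2.60, adjusted p = 0.0676). With libraries of a group that bear the same number taken as the same liver, which the labels do not state, 4 genes passed: Txnrd1 (adjusted p = 0.00998), Txnrd2 (0.0421), Gpx2 (0.0118) and, with footprints above the mRNA by 0.66, Selenop (0.0376). For Gpx2 the wild type values were at or near 0 in both assays, with mRNA at most at 0.0817 RPKM. Its difference and the small wild type spread therefore rest on the pseudocount of 0.5. With the number as a block across all groups Txnrd1 passed (adjusted p = 0.00625) and Txnrd2 did not (0.057). For Gpx4 the interval of the difference was -0.54 to 0.71 and for Selenow -0.94 to 0.89.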

How the data were processed

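Livers were profiled by RNA-seq after polyA selection, and by ribosome profiling, per the labels' protocols; the submitters' processing notes name Bowtie 0.12.8 and the genome build mm9. The authors deposited RPKM values per gene and library, per the file headers. The sources used here do not give the counting, filters and annotation. The table of footprints 3′ of the UGA was not used. Each RPKM is reads divided by transcript length and library total, all whole numbers, and exact fractions between genes and libraries gave back the smallest reads, lengths (697 to 6769 nt) and totals that fit: all 203 RNA values above 0 gave their library's total within 0.001 of a whole number. Depth limits low genes; reads without molecular identifiers are not independent, so intervals on reads cover counting error only. The recovery and the test were checked on simulated data.

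The test was limma 3.58.1 in R 4.3.3, on log2(RPKM + 0.5), leaving out genes whose mean was under 1 RPKM, in a single fit of all 4 groups (all 18 libraries for footprints against mRNA). Its two-sided p-values were adjusted by Benjamini-Hochberg over the 20 genes. Python 3.11.15 with numpy 2.4.6 and scipy 1.17.1 was used otherwise. Symbols follow RefSeq of GRCm38.p6 (11 by symbol, 12 by synonym); coordinates are given for printed promoters only. Members, lists and tests were chosen with earlier results of these data known. Every gene of the table could be named. A planned list by the place of selenocysteine in the protein was not made. Alternatives were other pseudocounts, filters, controls, scalings, variance models, the replicate number or the liver as a block, and leaving out each library.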

Additional observations from a re-analysis of the deposited data

Results flagged for a closer look

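The change in the Trsp knockout differed from that in the Secisbp2 knockout for 14 mRNAs by the test of the difference itself (limma adjusted p under 0.05). On the log2 scale the Trsp change was above the Secisbp2 change by 4.95 for Gpx2, 1.78 for Gpx4, 1.37 for Dio1, 0.85 for Sephs2, 0.82 for Selenop, 0.68 for Selenos and 0.56 for Selenoh. It was below, with differences of -1.47 for Selenok, -1.33 for Selenot, -1.20 for Txnrd1, -1.18 for Txnrd3, -0.89 for Selenoi, -0.80 for Txnrd2 and -0.67 for Selenoo. The wild type groups of the colonies differed in 8 of these mRNAs too: Trsp wild type minus Secisbp2 wild type was -2.27 for Gpx2, -0.98 for Gpx4, 0.97 for Dio1, 1.24 for Sephs2, 0.70 for Selenot, -0.82 for Txnrd2, -0.79 for Txnrd3 and 0.52 for Selenoi on the log2 scale (limma adjusted p = 0.000562, 0.000566, 0.00625, 0.000686, 0.000562, 0.000411, 0.00134 and 0.00807). Selenoh, Selenos and Sephs2 lost their call without at least 1 of the 9 libraries. Such a difference was not confined to the 14: Selenof, which is not among them, also differed between the wild type groups (0.85, limma adjusted p = 0.000562). The part of the wild type groups in the differences was not tested. No group had enough libraries to look for single outlying livers.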

How the results depend on the processing

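For the mRNA level, the count of 15 calls, which ignores direction, was between 11 and 17 under the alternatives. With libraries scaled to the summed RPKM, 14 calls were higher and 2 lower, against 1 higher and 14 lower in the main fit. Only 3 of the 15 kept their call in every fit that included them: Gpx1, Gpx2 and Selenow. These fits were the 9 that left out a library and 13 other settings. Leaving out single libraries gave 14 to 16 calls for the level, 13 to 17 for the share, 11 to 15 for the difference between knockouts, 0 to 3 for footprints against mRNA, and -3892 to -3540 RPKM for the summed difference. The footprint difference of Txnrd1 and Txnrd2 was the least stable of these: 1 call was made with the replicate number as a block or with libraries scaled to the median ratio, and 4 with the Trsp groups alone or, added after seeing the data, with a replicate block by liver. Between groups equal numbers were not taken to pair livers: correlations of deviations were -0.28 and -0.44 for the Trsp pairs, -0.29 to -0.00 for the others except 0.61 between both knockouts at either number, where with 2 livers a group both numbers give the same value; with the replicate block the level gave 16 calls, Gpx4 passing at 0.48 (adjusted p = 0.0123), the share 16 and the difference 14.

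Signs that changed were as follows, and the cause was not tested. Without single libraries Gpx3 ranged from -0.07 to 0.04 and Selenom from -0.27 to 0.05; Gpx3 was 0.02 with the block and 0.01 with voom weights. With the wild types pooled Gpx4 was -0.05 and Selenom 0.03. With Secisbp2 wild type as control Gpx4 was -0.64, Selenof 0.23, Selenoi 0.14, Selenom 0.24, Selenos 0.08, Sephs2 0.34 and the share of Txnrd2 -0.53. Scaled to the median ratio, Gpx3 was 0.56, Selenoi 0.18, Selenom 0.46, Selenoo 0.39 and Selenos 0.30. Scaled to the summed RPKM, Dio1 was 0.25, Gpx3 1.41, Msrb1 0.82, Selenof 0.80, Selenoh 0.81, Selenoi 1.04, Selenom 1.31, Selenoo 1.25, Selenos 1.15, Selenot 0.40, Sephs2 0.52, Txnrd1 0.72, Txnrd2 0.44 and Txnrd3 0.39. Against a sum without Gpx1 and Selenop, the share of Msrb1 was -0.08, of Selenof -0.10, Selenoh -0.09, Selenot -0.50, Sephs2 -0.38, Txnrd1 -0.18 and Txnrd2 -0.46, with 4 shares higher and 8 lower. The voom weights on recovered reads (15 calls) and a fit without Gpx2 (14) were chosen after seeing the data.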
